A study of Mus musculus with 12 samples.

Results

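The genes described here are stem and progenitor surface proteins (Cd34, Prom1, Ly6a, Eng, Procr) and regulators (Mecom, Sox4, Bmi1, Myb, Hlf). They were taken as the probe sets whose only gene symbol in the platform annotation is one of these names. That gave 17 of the 45141 probe sets, for 9 genes, of which 8 genes passed the filter on dim values and stood among the 12560 genes tested. No probe set carried Ly6a, which encodes the stem cell antigen Sca-1, as its single symbol in the annotation used, and it was not analysed here. Both Mecom probe sets were dim on all 12 arrays.

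Blood stem and progenitor cells carry CD34, prominin-1, Sca-1, endoglin and the protein C receptor on their surface in combinations that change as they commit to a lineage. Transcription factors such as Mecom, Hlf, Myb and Sox4 and the chromatin protein Bmi1 hold the stem or progenitor state, and several of them can drive leukaemia when they stay active. In myeloid leukaemia, some of these genes are kept on in blasts while others are lost.

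Expression was measured in 4 groups of 3 arrays, with 1 array per sample. The groups Ts1Cje + Trib1 WT and B6 + Trib1 WT are mouse acute myeloid leukaemia (AML) cell lines that express Trib1, a pseudokinase that promotes degradation of C/EBP alpha. The groups Ts1Cje and B6 are mouse hematopoietic cells with no Trib1 construct named. Ts1Cje mice carry an extra copy of part of chromosome 16, a model of Down syndrome, and B6 cells are labelled wild type. All cells were untreated, stayed in medium with IL-3 (5 ng/ml), a cytokine of myeloid growth, and 10% serum, and 100 ng of total RNA was labelled. The labels name neither the vector and promoter of Trib1 nor the number of lines, animals or clones, the tissue or the ages, so a p-value here reflects variation among arrays that may be technical replicates. Trib1 and the leukaemic state cannot be told apart in a comparison of lines with cells.

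Values are intensities on the deposited linear scale, and ± gives the standard deviation over n = 3 arrays. Array medians lay between 30.5 and 32.0, and a probe set was called dim on an array where it did not exceed the array's 40th percentile (22.0 to 23.5). Differences were taken on the scale log2(intensity + 15), which draws those of dim genes towards 0, and were tested with limma over all 12560 genes, passing at an adjusted p under 0.05. Arrays of a group had correlations across genes of 0.997 to 0.999. The 5 pan-leukocyte markers were above the filter in each group, with summed intensities of 6920.5 to 7281 in Ts1Cje + Trib1 WT, 7853 to 7972 in B6 + Trib1 WT, 8534 to 8964 in Ts1Cje and 8592 to 8819.98 in B6. The intensities of different genes come from different probes and were not compared with each other.

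Cd34 and Prom1, which encode surface markers of progenitor cells, had opposite patterns. Cd34 was lowest in Ts1Cje cells and Prom1 was highest there, and in the lines Cd34 was high and Prom1 low. The plot of intensities on every array shows this contrast beside the flat, dim values of Mecom.

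Cd34 encodes a sialomucin of progenitors, endothelial cells and, in the mouse, mast cells. Its intensities were 494, 490.5 and 416 in Ts1Cje + Trib1 WT and 520.1, 499.96 and 521 in B6 + Trib1 WT. In Ts1Cje cells they were 137, 111 and 119, and in B6 cells 387, 386 and 372. The Ts1Cje arrays lay below all 9 others, and the 2 groups of lines lay next to each other and above B6. Cd34 fell by 1.54 on the log2 scale in Ts1Cje against B6 cells (SE 0.07, adjusted p = 2.36e-09). It rose by 1.81 in Ts1Cje + Trib1 WT against Ts1Cje (SE 0.07, adjusted p = 4.05e-11) and by 0.42 in B6 + Trib1 WT against B6 (adjusted p = 0.000194). Between the lines the difference was -0.14, with a 95% interval of -0.29 to 0.02 (adjusted p = 0.201). In bulk RNA such as this, fewer cells of a type and less RNA per cell cannot be told apart.

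**Figure D1:**
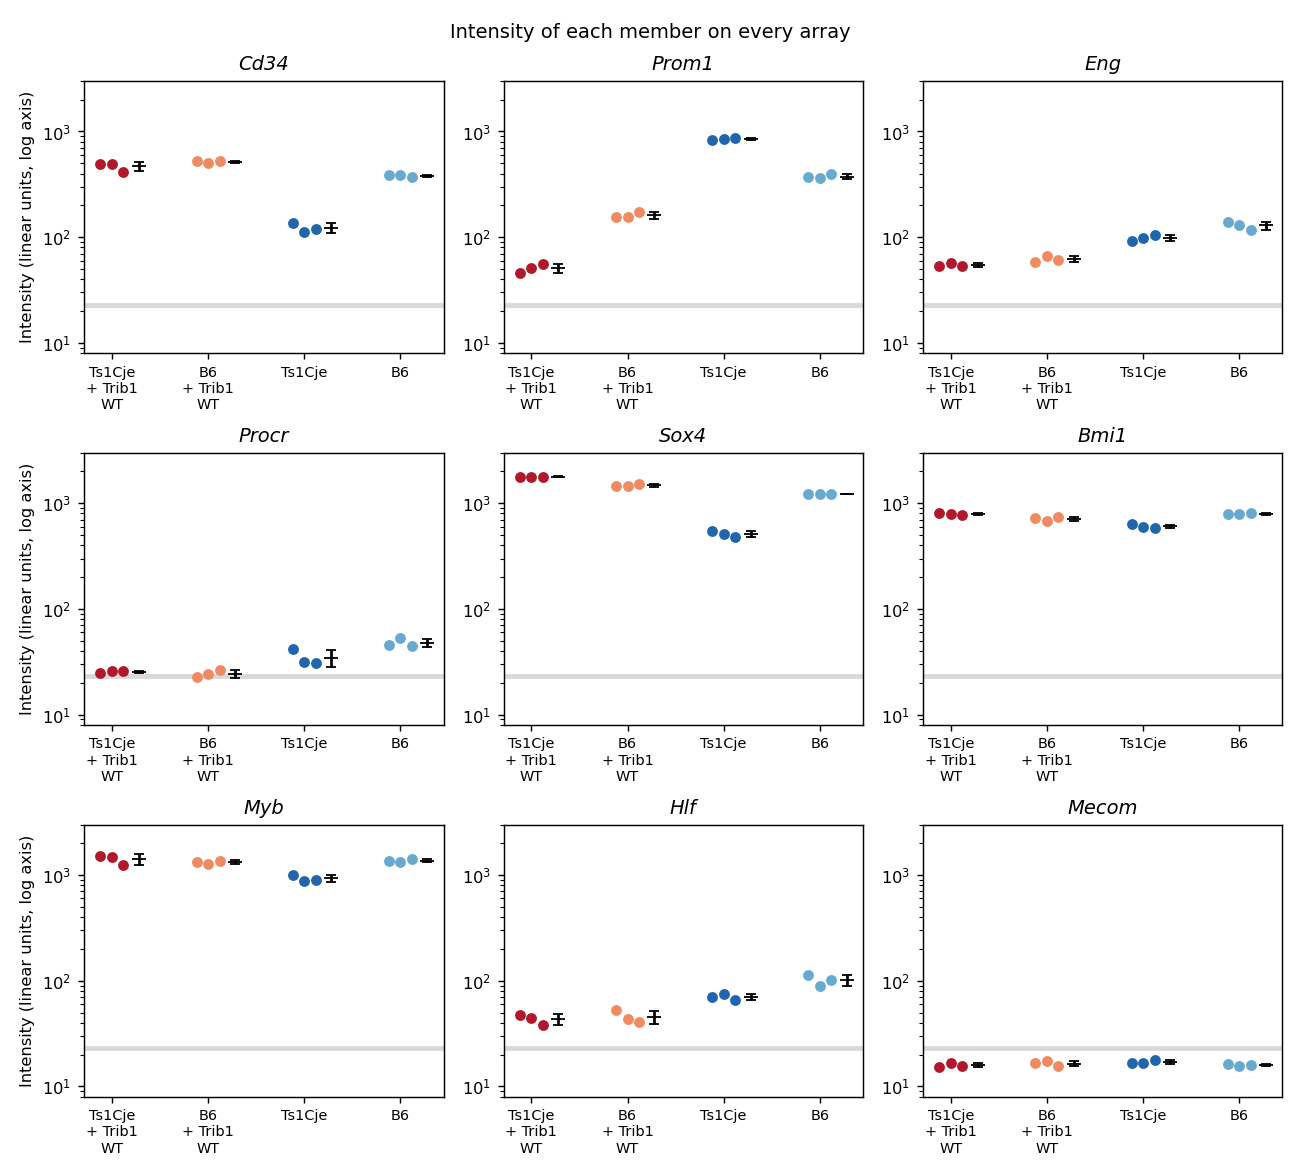
Intensity (linear units on a log axis) of the brightest probe set of each of the 9 genes on all 12 arrays. Coloured points are single arrays, black bars are the mean ± SD of 3 arrays, and the grey band spans the filter level of 22.0 to 23.5. Prom1 lies between 829 and 860.5 in Ts1Cje cells and between 45.6 and 55.4 in Ts1Cje + Trib1 WT, whereas Mecom lies under the band on every array.

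Prom1 encodes prominin-1 (CD133), a membrane protein of cell surface protrusions. Its intensities were 45.6, 50.6 and 55.4 in Ts1Cje + Trib1 WT and 154, 154 and 174 in B6 + Trib1 WT, against 829, 846 and 860.5 in Ts1Cje cells and 371, 359 and 393 in B6 cells. None of the 4 groups overlapped, and the order from high to low was Ts1Cje, B6, B6 + Trib1 WT and Ts1Cje + Trib1 WT. The genotype with the most Prom1 among the cells thus had the least among the lines. Prom1 was higher by 1.14 in Ts1Cje against B6 (SE 0.06, adjusted p = 7.44e-09) and fell by 1.42 in Ts1Cje + Trib1 WT against B6 + Trib1 WT (SE 0.06, adjusted p = 1.54e-09). Against the cells of their own background, it fell by 3.72 in Ts1Cje + Trib1 WT (SE 0.06, adjusted p = 4.6e-15) and by 1.15 in B6 + Trib1 WT (SE 0.06, adjusted p = 1.34e-09). The mean intensity in Ts1Cje cells was 16.7 times that in Ts1Cje + Trib1 WT.

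Summed markers of mature myeloid cells lay in the same order of groups as Prom1, although single markers differed. The 9 neutrophil markers summed to 7559 to 7728 in Ts1Cje + Trib1 WT, 15035 to 15287 in B6 + Trib1 WT, 30321 to 31217 in Ts1Cje and 19549 to 20002 in B6. For the 9 monocyte and macrophage markers the sums were 2216 to 2229.6, 3742 to 3912, 10575 to 10872 and 6556 to 6729 in the same order of groups. In Ts1Cje against B6, 8 of 9 neutrophil and 8 of 9 monocyte markers rose, where 23.3% of all genes did. In Ts1Cje + Trib1 WT against Ts1Cje 9 and 8 of them fell, where 26.8% of all genes did. In B6 + Trib1 WT against B6, 8 neutrophil markers fell and 1 rose, and 6 monocyte markers fell and 3 rose. Of all genes, 31.1% fell and 34.1% rose there. The monocyte marker Ccr2 ran the other way, at means of 1202 in Ts1Cje + Trib1 WT and 1327 in B6 + Trib1 WT, against 759 in Ts1Cje and 402 in B6. No marker of either list was dim in any group. The part of these cells in the Prom1 values was not tested.

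Markers of mast cells and basophils lay in another order, with both groups of lines far above both groups of cells. The sums of 8 such markers were 21369 to 22046 in Ts1Cje + Trib1 WT and 18881 to 19128 in B6 + Trib1 WT, against 4737 to 4998 in Ts1Cje and 2892 to 2938 in B6. All 7 that were in the fit rose in both comparisons of lines with cells, in each of which 34.1% of all genes rose. Cpa3, a mast cell carboxypeptidase, averaged 7813 ± 139.7 in Ts1Cje + Trib1 WT and 7471 ± 166 in B6 + Trib1 WT, and 399 ± 20.1 in Ts1Cje and 296 ± 19.5 in B6. Only Mcpt4 was dim, in all 4 groups. The 6 megakaryocyte markers also summed higher in the lines, at 8417 to 8668 in Ts1Cje + Trib1 WT and 9671 to 9918 in B6 + Trib1 WT, than in the cells, at 4617 to 4819 in Ts1Cje and 5806 to 5958 in B6. The part of these lineages in the Cd34 values was not tested.

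**Figure D2:**
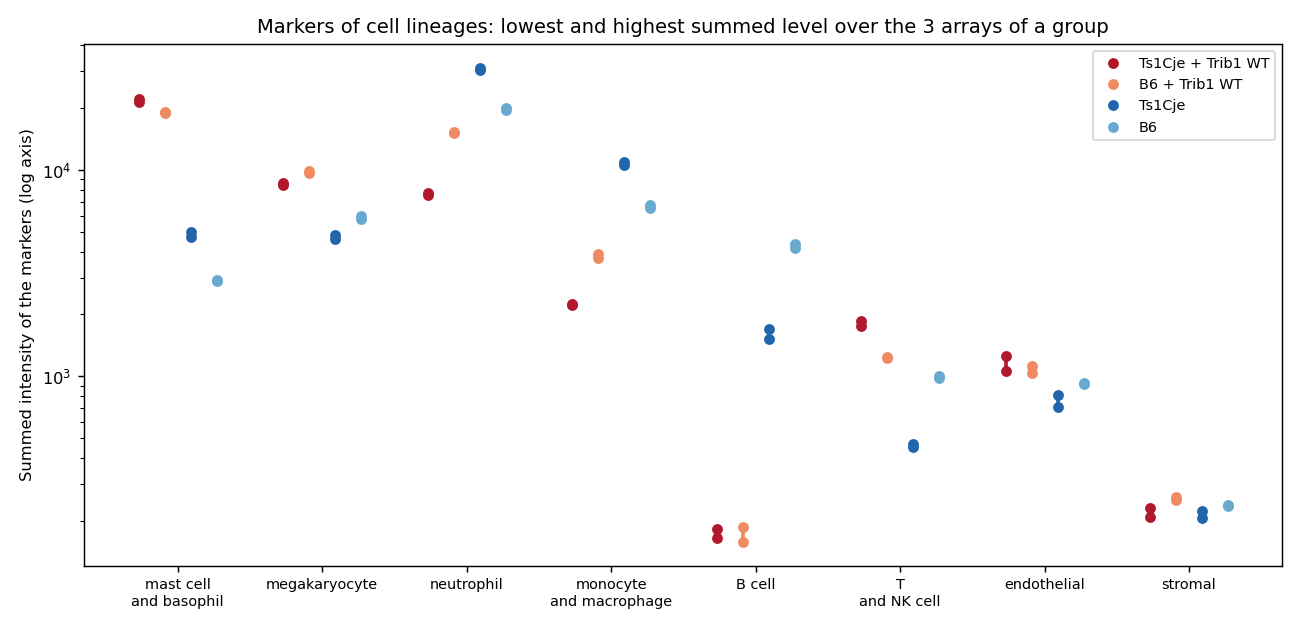
Summed intensity (log axis) of the marker genes of 8 cell lineages, with the lowest and the highest of 3 arrays of a group as points joined by a line. Neutrophil and monocyte sums are highest in Ts1Cje cells and lowest in Ts1Cje + Trib1 WT, mast cell and megakaryocyte sums are higher in the lines, and B cell sums are 157 to 185 in the lines.

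Endoglin (Eng, CD105), a co-receptor of transforming growth factor beta and bone morphogenetic proteins, was lower in the lines than in the cells. The brighter of its 2 probe sets had intensities of 53.7, 57.1 and 53.1 in Ts1Cje + Trib1 WT and 58.4, 65.9 and 60.9 in B6 + Trib1 WT, against 91.6, 97.1 and 105 in Ts1Cje cells and 139, 131 and 117 in B6 cells. The groups did not overlap, but the lines stood close together. Eng fell by 0.70 in Ts1Cje + Trib1 WT against Ts1Cje (adjusted p = 2.72e-07), by 0.91 in B6 + Trib1 WT against B6 (adjusted p = 2.59e-08) and by 0.35 in Ts1Cje against B6 (adjusted p = 0.000437). Between the lines it differed by -0.14 (95% interval -0.27 to -0.01, adjusted p = 0.136). The dimmer Eng probe set fell in the same 3 comparisons, by 0.31, 0.59 and 0.25.

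Procr encodes the endothelial protein C receptor (CD201), a marker of stem cells at low abundance. It was near the filter level in the lines, at 24.7, 25.7 and 25.7 in Ts1Cje + Trib1 WT and 22.6, 24.1 and 26.3 in B6 + Trib1 WT. It was higher in the cells, at 41.4, 31.4 and 30.7 in Ts1Cje and 45.9, 53.1 and 45.1 in B6. The lines overlapped each other and lay below all 6 arrays of cells. Procr fell by 0.29 in Ts1Cje + Trib1 WT against Ts1Cje (adjusted p = 0.00419), by 0.68 in B6 + Trib1 WT against B6 (adjusted p = 3.2e-06) and by 0.35 in Ts1Cje against B6 (adjusted p = 0.00144). Between the lines the difference was 0.04 (95% interval -0.12 to 0.20, adjusted p = 0.769).

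Eng and Procr are also made by vascular endothelium, some of whose markers fell with them. Of 10 endothelial markers, 8 were in the fit. Of these, 6 fell in Ts1Cje against B6, 7 in B6 + Trib1 WT against B6 and 5 in Ts1Cje + Trib1 WT against Ts1Cje. Of all genes, 29.3%, 31.1% and 26.8% were lower in these comparisons. Tek is among the last 5, but no difference can be read for it there. It was dim on every array of the lines and near the filter level in Ts1Cje. Tek, Cdh5 and Emcn were all dim on every array of the lines, so they passed the filter through the cells alone. That favours falls in the lines, and the counts of lines against cells rest partly on these genes. In each group of lines 5 of the 10 were dim on all 3 arrays, among them Cdh5, the vascular cadherin, and Emcn, an endothelial sialomucin, against 2 in Ts1Cje and 1 in B6. Emcn averaged 17.3 ± 2.6 in Ts1Cje + Trib1 WT and 18.4 ± 1.58 in B6 + Trib1 WT, and 46.7 ± 3.52 in Ts1Cje and 106 ± 6 in B6. The summed level of the list ran the other way, at 1065 to 1254 in Ts1Cje + Trib1 WT, 1041 to 1126 in B6 + Trib1 WT, 712 to 812 in Ts1Cje and 922 to 926 in B6. In the lines most of that sum was Pecam1, which leukocytes and platelets also make. It averaged 855 ± 110.2 and 740.4 ± 43 in the 2 groups of lines, against 301 ± 46.1 in Ts1Cje and 312 ± 11.6 in B6. Of 8 stromal markers, 4 were in the fit. The sums of all 8 were 207 to 231, 252 to 259.9, 205 to 223 and 234 to 238 in the same order of groups. They include markers dim on all 3 arrays of a group, 5 in each group of lines and 4 in each group of cells. The part of such cells in the Eng and Procr values was not tested.

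The regulators Sox4, Bmi1 and Myb shared with Cd34 a minimum in Ts1Cje cells. Sox4, an HMG-box transcription factor that C/EBP alpha is known to repress in mouse progenitors, showed the largest differences of the regulators. The brightest of its 5 probe sets had intensities of 1787, 1789.8 and 1757 in Ts1Cje + Trib1 WT and 1454, 1448 and 1530.2 in B6 + Trib1 WT, against 541, 512 and 478 in Ts1Cje cells and 1220.2, 1211 and 1228 in B6 cells. None of the 4 groups overlapped, and the lines were above the cells of either background. Sox4 rose by 1.77 in Ts1Cje + Trib1 WT against Ts1Cje (SE 0.04, adjusted p = 3.82e-13) and fell by 1.23 in Ts1Cje against B6 (SE 0.04, adjusted p = 3.05e-10). It was higher by 0.27 in Ts1Cje + Trib1 WT against B6 + Trib1 WT (adjusted p = 0.000663).

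For B6 + Trib1 WT against B6, the Sox4 probe sets disagreed. The brightest rose by 0.27 (adjusted p = 0.000126), and another by 0.78 in the fit to all 28543 kept probe sets. Intensities of that second probe set were 179, 193 and 160.1 in B6 + Trib1 WT against 103, 98.3 and 89.1 in B6. The remaining 3 did not pass, with differences of -0.01, -0.10 and -0.07. In B6 + Trib1 WT against B6, 60.7% of all kept probe sets passed. In the other 3 comparisons, where 46.9%, 15.7% and 54.1% of kept probe sets passed, all 5 Sox4 probe sets did so with the same sign, from -0.42 to -1.26 in Ts1Cje against B6, 0.27 to 0.53 in Ts1Cje + Trib1 WT against B6 + Trib1 WT and 0.66 to 1.90 in Ts1Cje + Trib1 WT against Ts1Cje. All 5 also passed the interaction (0.72 to 1.73), where 42.0% of kept probe sets did.

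**Figure D3:**
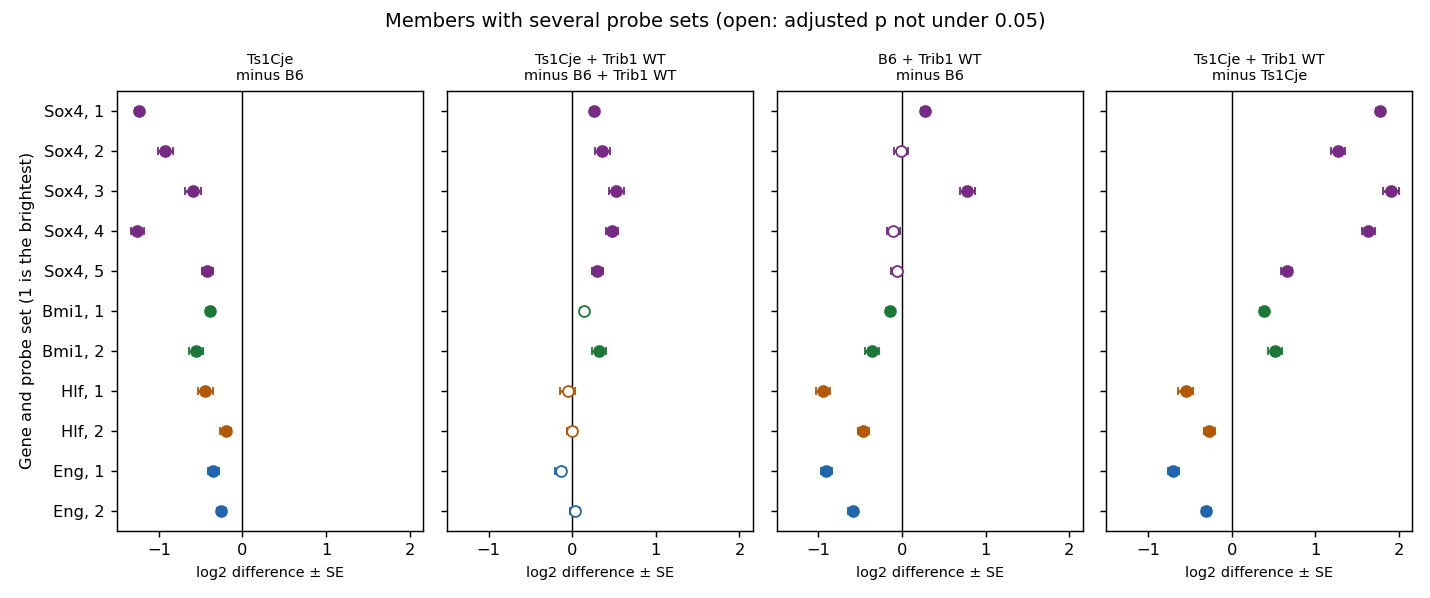
Difference in log2(intensity + 15) ± SE for each probe set of the 4 genes with several kept probe sets, in 4 comparisons of 3 with 3 arrays, from the fit to all kept probe sets. Open points did not pass. The 5 Sox4 probe sets lie on 1 side of 0 in every panel except B6 + Trib1 WT minus B6, where 2 rose and 3 lie near 0.

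Myb, the transcription factor required for definitive blood formation, had intensities of 1531, 1481 and 1233 in Ts1Cje + Trib1 WT and 1338, 1275 and 1368 in B6 + Trib1 WT. It had 1009.7, 873 and 901 in Ts1Cje cells and 1359.8, 1338 and 1422 in B6 cells. Only the Ts1Cje cells stood apart, below the other 9 arrays, and the other 3 groups overlapped. Myb fell by 0.56 in Ts1Cje against B6 (SE 0.07, adjusted p = 3.85e-05) and rose by 0.60 in Ts1Cje + Trib1 WT against Ts1Cje (SE 0.07, adjusted p = 8.77e-06). Differences were 0.09 between the lines (95% interval -0.07 to 0.25, adjusted p = 0.476) and -0.05 in B6 + Trib1 WT against B6 (95% interval -0.21 to 0.11, adjusted p = 0.574).

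Bmi1 is the subunit of Polycomb repressive complex 1 that silences the Cdkn2a locus in stem cells. Its brighter probe set had intensities of 808, 792 and 773 in Ts1Cje + Trib1 WT and 721, 683 and 746 in B6 + Trib1 WT, against 632, 593 and 585 in Ts1Cje cells and 785, 784 and 812 in B6 cells. The range was narrow, and Ts1Cje + Trib1 WT overlapped B6. Bmi1 fell by 0.39 in Ts1Cje against B6 (SE 0.04, adjusted p = 8.23e-06) and rose by 0.38 in Ts1Cje + Trib1 WT against Ts1Cje (adjusted p = 3.14e-06). It fell by 0.14 in B6 + Trib1 WT against B6 (adjusted p = 0.0102), a call lost without B6 + Trib1 WT array 2 (adjusted p = 0.0518).

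Between the lines Bmi1 was higher by 0.14 in Ts1Cje + Trib1 WT (adjusted p = 0.0336), and this call was fragile. It was lost with median centring (adjusted p = 0.0538), with only the 2 groups fitted (adjusted p = 0.0633) and without B6 + Trib1 WT array 1 or 2 or Ts1Cje + Trib1 WT array 1 or 2 (adjusted p = 0.0758, 0.145, 0.112 and 0.0859). The dimmer Bmi1 probe set rose by 0.32 there (adjusted p = 0.0211), and the brighter one missed the threshold in that wider fit (adjusted p = 0.0507).

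Hlf, a bZIP factor of the PAR family and a marker of long-term stem cells, was low and lower still in the lines. The brighter of 2 probe sets had intensities of 47.9, 44 and 38 in Ts1Cje + Trib1 WT and 52.7, 43.5 and 40.4 in B6 + Trib1 WT, against 70.2, 74.8 and 66.1 in Ts1Cje cells and 113, 89.6 and 102 in B6 cells. The lines overlapped, and each group of cells lay above them. Hlf fell by 0.55 in Ts1Cje + Trib1 WT against Ts1Cje (adjusted p = 8.93e-05), by 0.95 in B6 + Trib1 WT against B6 (adjusted p = 6.57e-07) and by 0.45 in Ts1Cje against B6 (adjusted p = 0.000944). Between the lines the difference was -0.05 (95% interval -0.24 to 0.14, adjusted p = 0.742). The dimmer probe set fell in the same 3 comparisons, by 0.27, 0.46 and 0.20.

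Mecom encodes EVI1, a zinc-finger factor of stem cells and of aggressive myeloid leukaemia. Its brighter probe set had intensities of 15.3, 16.8 and 15.7 in Ts1Cje + Trib1 WT, 16.5, 17.3 and 15.5 in B6 + Trib1 WT, 16.7, 16.7 and 17.9 in Ts1Cje and 16.2, 15.6 and 15.9 in B6. All were under the filter level, and so were those of the other probe set, between 8.67 and 10.03. No level or difference of Mecom can be read at this signal.

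The promoters of the 4 genes with their minimum in Ts1Cje cells are shown because these genes moved together, each falling in Ts1Cje against B6 and rising in Ts1Cje + Trib1 WT against Ts1Cje. The sequences are the 250 bases before the RefSeq start site on GRCm38.p6, 5′ to 3′ on the gene's strand, for the outermost start of each gene. Capitals mark matches on either strand to the MYB core AACNG and the C/EBP motif TTNNGNAA.
Cd34, chr1:194938571-194938820, plus strand: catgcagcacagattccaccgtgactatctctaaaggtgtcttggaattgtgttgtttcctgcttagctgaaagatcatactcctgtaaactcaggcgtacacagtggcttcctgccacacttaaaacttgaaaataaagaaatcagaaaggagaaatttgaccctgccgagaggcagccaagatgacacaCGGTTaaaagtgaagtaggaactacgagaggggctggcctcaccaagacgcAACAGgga
Sox4, chr13:28953700-28953949, minus strand: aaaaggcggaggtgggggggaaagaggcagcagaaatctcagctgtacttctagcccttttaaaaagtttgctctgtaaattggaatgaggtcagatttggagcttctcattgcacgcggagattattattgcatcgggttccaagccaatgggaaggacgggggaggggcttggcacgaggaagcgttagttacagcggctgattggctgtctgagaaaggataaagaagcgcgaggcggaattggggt
Bmi1, chr2:18676768-18677017, plus strand: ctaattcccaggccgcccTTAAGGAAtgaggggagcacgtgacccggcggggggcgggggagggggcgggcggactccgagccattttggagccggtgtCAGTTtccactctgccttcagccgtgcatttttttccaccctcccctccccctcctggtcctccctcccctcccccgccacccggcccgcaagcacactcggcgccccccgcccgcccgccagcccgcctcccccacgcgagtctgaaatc
Myb, chr10:21160985-21161234, minus strand: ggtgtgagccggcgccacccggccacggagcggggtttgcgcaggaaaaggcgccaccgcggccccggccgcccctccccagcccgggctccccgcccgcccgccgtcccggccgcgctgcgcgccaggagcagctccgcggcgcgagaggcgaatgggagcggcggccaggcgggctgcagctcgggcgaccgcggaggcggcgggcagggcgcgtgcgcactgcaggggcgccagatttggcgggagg

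The Cd34 window held 2 MYB matches, whose first bases lay 59 and 8 bases before the start. The Bmi1 window held 1 MYB match, 151 bases before the start, and 1 C/EBP match, 232 bases before it. The Sox4 and Myb windows held none of either. Among all 32851 windows of 250 bases in the table, 74.2% held the MYB letters and 36.8% the C/EBP letters, so matches are common. On both strands, the STAT5 letters TTCNNNGAA (in 7.02% of all windows) had no match in the 4 windows. The same held for the ETS letters CGGAAG (in 13.6%) and for the letters TGATAA, bound by GATA factors (in 7.94%). No match of 1 motif overlapped that of another in these windows. Base composition also differed among the 4, with 81.2% G and C for Myb and 70.4% for Bmi1 against 50.8% for Sox4 and 46.4% for Cd34, where the median of all windows was 52.4%.

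Counted together, the 8 tested genes followed the comparison rather than a common direction. In Ts1Cje against B6, 7 of 8 were lower, where 29.3% of all genes were, and Prom1 alone was higher, where 23.3% of all genes were. Their median difference was -0.42, against 0.01 over all genes. In B6 + Trib1 WT against B6, 5 were lower and 2 higher (31.1% and 34.1% of all genes), with a median of -0.41 against 0.03. In Ts1Cje + Trib1 WT against Ts1Cje, 4 were lower and 4 higher (26.8% and 34.1% of all genes), with a median of 0.05 against 0.02. Between the lines, 2 were higher and 1 lower (11.9% and 9.63% of all genes, 21.5% in either direction), with a median of -0.01 against 0.00. With 52.6%, 65.2% and 60.9% of all genes passing in either direction in the first 3 of these comparisons, a pass by itself sets a gene little apart. Each of these comparisons shares arrays with others, so their calls are not independent.

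**Figure D4:**
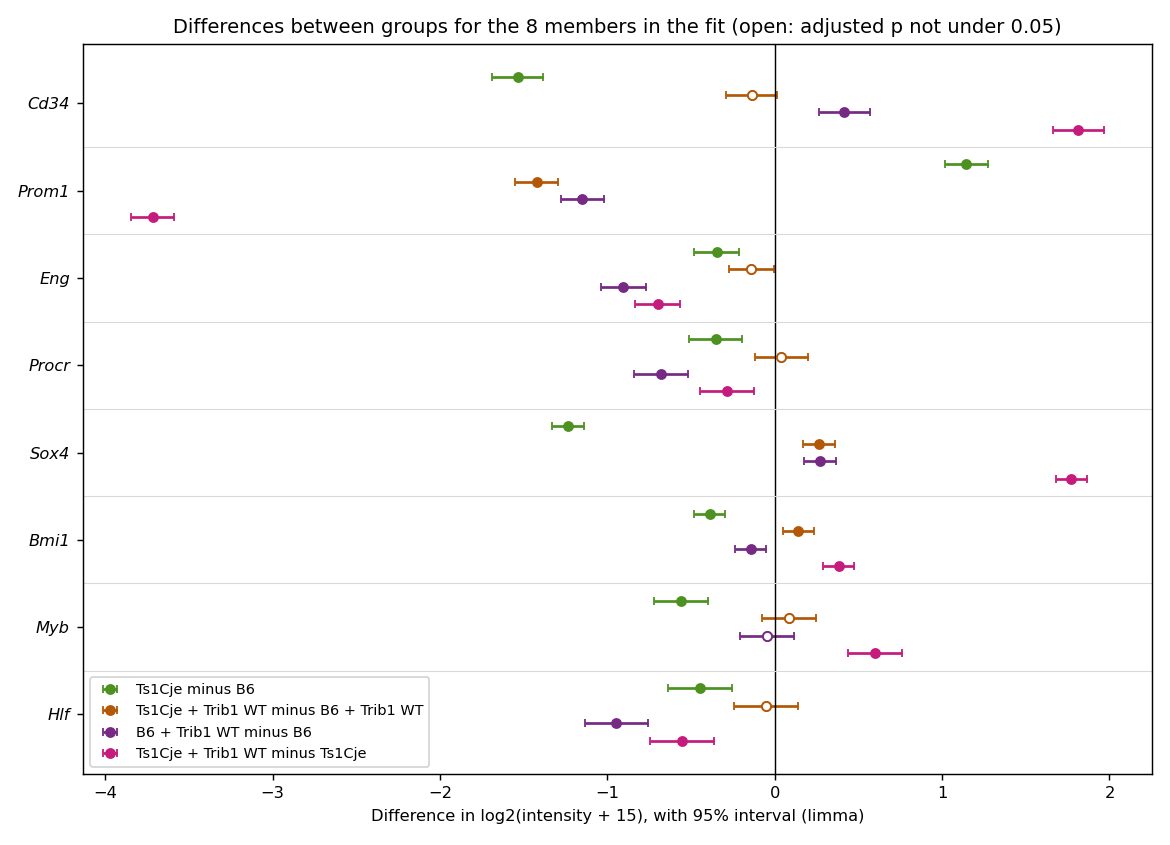
Difference in log2(intensity + 15) with its 95% interval from limma for the 8 tested genes in the 4 comparisons, each of 3 with 3 arrays. Open points did not pass. The values in Ts1Cje + Trib1 WT minus Ts1Cje run from -3.72 for Prom1 to 1.81 for Cd34, and those between the lines lie within -0.14 to 0.27 for every gene except Prom1.

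An interaction term tested the change of the genotype difference with Trib1, as the difference between the lines minus that between the cells. It passed for 7 of the 8 genes, 6 of them positive and Prom1 negative, where 28.4% of all genes were positive and 20.2% negative (48.6% in either direction). The interaction was 1.50 for Sox4 (SE 0.06, adjusted p = 8.34e-10), 1.40 for Cd34 (SE 0.10, adjusted p = 1.58e-07), 0.65 for Myb (adjusted p = 0.000253) and 0.53 for Bmi1 (adjusted p = 1.43e-05). For Prom1 it was -2.57 (SE 0.08, adjusted p = 1.01e-10). Sox4, Bmi1 and Prom1 thus had genotype differences of opposite sign with and without Trib1 that both passed, although for Bmi1 the call between the lines was fragile. Procr (0.39, adjusted p = 0.00783) and Hlf (0.39, adjusted p = 0.0198) also passed, and both were low in the lines. The Hlf call was lost without B6 array 1 or Ts1Cje + Trib1 WT array 1 (adjusted p = 0.0519 and 0.0526) and with quantile normalization (adjusted p = 0.0668), and the dimmer Hlf probe set did not pass (0.19, adjusted p = 0.0948). Eng did not pass (0.21, adjusted p = 0.0656), although it passed without B6 array 3, Ts1Cje array 3 or B6 + Trib1 WT array 2 (adjusted p = 0.0188, 0.0343 and 0.0451), with median centring (adjusted p = 0.0355) and with the mean of its probe sets (adjusted p = 0.00999). The dimmer Eng probe set passed the interaction in the fit to all kept probe sets (0.29, adjusted p = 0.0128).

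Other surface proteins of stem and progenitor cells split in the lines. Of 12 measured, 10 fell and Cd93 rose in Ts1Cje against B6, with a median of -0.46. The smallest adjusted p-values were those of Cd27, the integrin subunit Itga2b, CD41 (-0.98), and Thy1 (-0.83). Cd27 was dim on every array of all groups but B6 and passed the filter through B6 alone, so it is given as at least 2.25-fold lower in Ts1Cje, against the filter level of each array. The counts of this and the following lists are to be read against the shares of all genes given for the same comparisons. In B6 + Trib1 WT against B6, 7 rose and 4 fell (median 0.38), and in Ts1Cje + Trib1 WT against Ts1Cje, 7 rose and 5 fell (median 0.67). Itga2b had the smallest adjusted p-value in both, rising by 1.73 and 2.59, and averaged 1346 ± 78.1 in Ts1Cje + Trib1 WT and 1464 ± 39.6 in B6 + Trib1 WT against 211 ± 8.63 in Ts1Cje and 430.5 ± 18.1 in B6. The tetraspanin Cd9 rose by 0.95 in Ts1Cje + Trib1 WT against Ts1Cje and by 1.09 in B6 + Trib1 WT against B6, and Thy1 by 1.87 and 1.15. The cytokine receptor Flt3 (-1.30 and -1.69) and Cd93 (-0.92 and -0.39) fell in both. Tek and Cd27 passed as lower in both as well, but were dim on every array of both groups of lines. They were at least 1.56-fold and 2.23-fold lower in B6 + Trib1 WT than in B6, and no difference can be read for them, or for Robo4 near the filter level, in Ts1Cje + Trib1 WT against Ts1Cje. Between the lines 5 were lower in Ts1Cje + Trib1 WT, namely Cd9 (-0.27), Esam (-0.33), Cd93 (-0.17), the receptor Kit (-0.22) and Slamf1 (-0.19).

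Among 17 other measured stem and progenitor regulators, 11 fell and 2 rose in Ts1Cje against B6 (median -0.24). The homeobox gene Meis1 fell by 1.33, the bHLH factor Tal1 by 1.11 and the repressor Gfi1b by 0.85, whereas Runx1 (0.29) and Gfi1 (0.52) rose. In Ts1Cje + Trib1 WT against Ts1Cje, 11 rose and 3 fell (median 0.27), led by Tal1 (2.50), Gata2 (2.16) and Gfi1b (1.84), with falls of Gfi1 (-2.35), Lmo2 (-1.21) and Hoxa9 (-0.27). In B6 + Trib1 WT against B6, 7 rose and 6 fell (median 0.01), where 34.1% and 31.1% of all genes did, so these counts lie near those of all genes, with Gata2 (2.07), Tal1 (1.34) and Gfi1b (0.86) again at the smallest adjusted p-values of those that rose. Between the lines, Erg (0.71), Runx1 (0.44), Mllt3 (0.37) and Gata2 (0.15) were higher in Ts1Cje + Trib1 WT, and Lmo2 (-0.76), Gfi1 (-0.62) and Hmga2 (-0.19) lower. Erg and Runx1 lie on the segment that is trisomic in Ts1Cje, and among the cells Erg was lower in Ts1Cje than in B6 (-0.34, adjusted p = 0.000693). Several of the genes that rose in the lines, Itga2b, Tal1, Gata2 and Gfi1b, also serve megakaryocytes, mast cells or both.

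**Figure D5:**
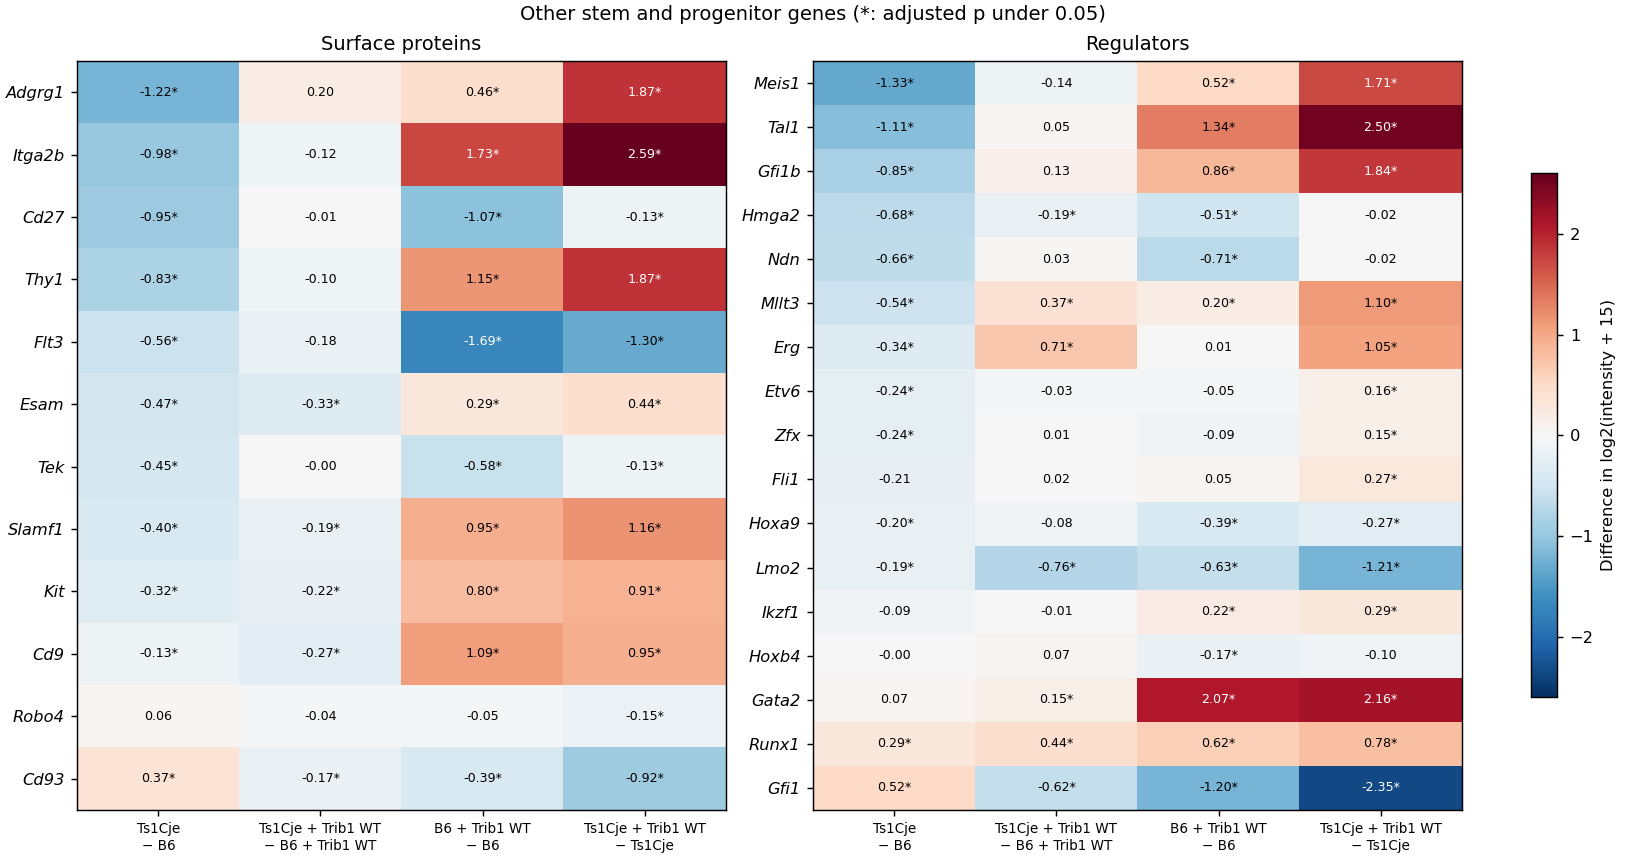
Differences in log2(intensity + 15) for 12 other surface proteins and 17 other regulators of stem and progenitor cells in 4 comparisons of 3 with 3 arrays, with genes ordered by Ts1Cje minus B6 and red for higher. Asterisks mark differences that passed. Cd27 and Ndn were dim in every group but B6 and Tek in both groups of lines, so their values understate or do not give a difference. Itga2b, Tal1, Thy1, Meis1 and Gfi1b are lower in Ts1Cje than in B6 and higher in the lines than in cells of their own background.

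Relatives of the surface proteins were measured where the array allowed. Podocalyxin (Podxl), a sialomucin of the CD34 family, averaged 819.9 ± 64.2 in Ts1Cje + Trib1 WT and 552 ± 5.19 in B6 + Trib1 WT, against 67.3 ± 5.33 in Ts1Cje and 151 ± 4.98 in B6. It rose by 3.34 in Ts1Cje + Trib1 WT against Ts1Cje, by 1.77 in B6 + Trib1 WT against B6 and by 0.56 between the lines, and fell by 1.01 in Ts1Cje against B6. Like Cd34 it was lowest in Ts1Cje cells, but the lines differed, with Ts1Cje + Trib1 WT higher. Prom2 and Podxl2 did not pass the filter. Of the Ly6 family, 3 genes were measured. Ly6d, an early B-lineage marker, averaged 17.6 ± 1.17 in Ts1Cje + Trib1 WT and 19.2 ± 2 in B6 + Trib1 WT, and 363 ± 3.88 in Ts1Cje and 582 ± 16.6 in B6. Ly6c1 fell by 1.21 in Ts1Cje + Trib1 WT against Ts1Cje and rose by 0.37 in B6 + Trib1 WT against B6, and Ly6e rose by 0.95 and 0.64 in them. In the protein C pathway, thrombomodulin (Thbd) fell with Procr in the lines, where it was dim on every array, and was at least 4.17-fold lower in the Ts1Cje and 4.54-fold lower in the B6 background, whereas the thrombin receptor F2r rose by 1.97 and 1.03 and protein S (Pros1) by 0.59 and 0.53.

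B cell markers were low in the lines. Their sums over 6 genes were 165 to 183 in Ts1Cje + Trib1 WT and 157 to 185 in B6 + Trib1 WT, against 1518 to 1692 in Ts1Cje and 4192 to 4393 in B6. Of 6 in the fit, 5 fell in each comparison of lines with cells and in Ts1Cje against B6. Among these, Ebf1 averaged 11.9 ± 0.52 in Ts1Cje + Trib1 WT and 11.7 ± 1.26 in B6 + Trib1 WT. It was dim on every array of the lines and passed the filter through the cells alone, which favours a fall in the lines. Dntt, at means of 25.4 and 25.8, was near the filter level in the lines. The order of groups in these sums was that of Eng, Procr and Hlf among the cells, and their part in those values was not tested.

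Partners of Bmi1 were listed together with the Ink4 loci. Of 14 measured genes of Polycomb repressive complex 1 and the Ink4 loci, 8 fell in Ts1Cje against B6 (median -0.14), among them Phc1 (-0.65), Cbx6 (-0.79) and Pcgf6 (-0.66), and Cdkn2b rose (0.25). In Ts1Cje + Trib1 WT against Ts1Cje, 8 rose and 4 fell (median 0.17), and in B6 + Trib1 WT against B6, 3 rose and 5 fell (median 0.00). The cell cycle inhibitor gene Cdkn2a, which Bmi1 represses, averaged 321 ± 7.33 in Ts1Cje + Trib1 WT and 251 ± 21.1 in B6 + Trib1 WT, against 12.3 ± 0.89 in Ts1Cje and 12.3 ± 0.59 in B6, where it was dim on every array. Cdkn2a passed the filter through the lines alone, so its rise is given as a bound against the filter level of each array. It was at least 14.0-fold higher in Ts1Cje + Trib1 WT than in Ts1Cje and 11.3-fold higher in B6 + Trib1 WT than in B6. Its neighbour Cdkn2b rose by 1.81 and 1.65. Those that fell in both comparisons of lines with cells were Phc2 (-0.53 and -0.79), Pcgf5 (-0.43 and -0.41), Cdkn2c (-0.26 and -0.35) and Cbx7 (-0.23 and -0.74). In the B6 background Cbx6 also rose (0.24) and Pcgf1 fell (-0.14). Between the lines Cdkn2b (0.42), Cdkn2a (0.34) and Pcgf1 (0.20) were higher in Ts1Cje + Trib1 WT and 11 genes did not pass. Of all genes, 21.5% passed there in either direction, so this count lies near that of all genes.

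Signalling through endoglin's ligands gave no single direction. Of 19 measured genes, 10 fell and 2 rose in Ts1Cje against B6 (median -0.16), with Smad3 (-0.56), Smad7 (-0.52) and Smad5 (-0.37) at the smallest adjusted p-values of those that fell, and Id1 (0.53) and Acvrl1 (0.54) higher. In B6 + Trib1 WT against B6, 12 fell and 4 rose (median -0.28), and in Ts1Cje + Trib1 WT against Ts1Cje, 11 fell and 7 rose (median -0.17). The co-receptor Tgfbr3 fell by 1.53 in Ts1Cje + Trib1 WT against Ts1Cje and by 1.41 in B6 + Trib1 WT against B6, and the signalling repressor Skil by 1.00 and 1.17. The kinase receptor Tgfbr1 rose by 1.35 and 0.88, and averaged 1232 ± 12.9 in Ts1Cje + Trib1 WT and 1099 ± 49.5 in B6 + Trib1 WT, and 474 ± 32.7 in Ts1Cje and 589.6 ± 17.4 in B6. The other genes that rose in B6 + Trib1 WT against B6 were Id1 (1.04), Id2 (0.33) and Tgfb1 (0.31). Between the lines 6 genes were higher in Ts1Cje + Trib1 WT and 3 lower, namely Tgfbr3 (-0.53), Smad3 (-0.37) and Id1 (-0.22).

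Relatives of the other regulators were few. Sox11, of the same group as Sox4, passed in none of the 4 comparisons, and Sox12 fell by 0.21 in Ts1Cje against B6 and rose by 0.17 in Ts1Cje + Trib1 WT against Ts1Cje. Of the MYB relatives and coactivators, Mybl2 fell by 0.34 and the acetyltransferase Crebbp by 0.76 in Ts1Cje + Trib1 WT against Ts1Cje, where Myb rose, and both fell in B6 + Trib1 WT against B6 (-0.49 and -1.43). Of the PAR bZIP genes, Tef rose by 0.56 in Ts1Cje + Trib1 WT against Ts1Cje and by 0.42 in B6 + Trib1 WT against B6, where Hlf fell, and Dbp passed in neither. The related repressor Nfil3 fell by 1.36 and 1.31.

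For the 4 genes whose group means spanned at least 1 log2 unit, the genes with the most similar profile were sought among 8112 others with a group mean of at least 100. Likeness was Pearson's correlation over the 12 arrays, which come in 4 groups of 3, so it mostly describes the 4 group means. Nearest to Cd34 were Meis1, Elf1 and Inka1 (0.993, 0.993 and 0.992). Meis1 averaged 283 ± 3.29 in Ts1Cje + Trib1 WT and 313 ± 8.25 in B6 + Trib1 WT, against 76 ± 5.69 in Ts1Cje and 214 ± 8.32 in B6. Nearest to Prom1 were Gda, Dram1 and Msr1 (0.998 each). Nearest to Sox4 were Psip1, Cnot6 and Cdk6 (0.997, 0.995 and 0.995), and nearest to Eng were Cd79a, Pip5k1c and Prkd2 (0.991, 0.990 and 0.989).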

How the data were processed

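Total RNA of 12 mouse samples, 3 in each of 4 groups taken from the sample titles, was measured on Affymetrix arrays of perfect-match probes. The deposited values were intensity per probe set on a linear scale, credited to MAS5 per the submitters' processing notes. MAS5 uses mismatch probes, which these arrays lack, and the scaling target and genome build are not given in the sources used here. With 3 arrays a group, precision is limited by their number.

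Of 45141 probe sets, 28898 carried 1 gene symbol, 551 several, 15588 none and 104 belonged to controls. The platform annotation gave the symbols, updated through Entrez identifiers for 28689 probe sets with the RefSeq table of GRCm38.p6. Probe sets with 1 symbol that exceeded their array's 40th percentile on at least 3 arrays were kept (20066), and the brightest represented its gene, giving 12560 genes. The group means of log2(intensity + 15) were estimated jointly from the 12 arrays (R 4.3.3, limma 3.58.1), with two-sided moderated tests and Benjamini-Hochberg adjustment over all genes. The same model on all 28543 kept non-control probe sets gave the values of further probe sets. The fit was tested on simulated data. Promoters were available for 9 of the 10 genes in the RefSeq table used.

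The genes, lists, motifs and tests were chosen with earlier results of these data known, and the motifs after the values were seen. Lists covered other stem and progenitor surface proteins and regulators, the families and partners of the genes described, and markers of 12 cell types or tissues. All 10 genes were named, and of each list up to 3 genes with the smallest adjusted p and any gene behind a count of 5 or fewer, with a subset printed. Tried as alternatives were median centring, quantile normalization, an offset of 1, no filter or one at the 60th percentile, the mean of probe sets, no _x_at or _s_at probe sets, robust moderation with a trend, only the groups compared, a replicate block and each array left out.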

Additional observations from a re-analysis of the deposited data

Results flagged for a closer look

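For 7 of the 8 tested genes the genotype difference with Trib1 differed from that without it by limma's interaction test, which 48.6% of all genes passed, and each is given as an interaction on the log2 scale. Sox4 had an interaction of 1.50 from genotype differences of 0.27 with Trib1 and -1.23 without it, and Bmi1 one of 0.53 from 0.14 and -0.39. Prom1 had -2.57, from -1.42 and 1.14. In these 3 genes the direction of the genotype difference turned between lines and cells, although for Bmi1 the call between the lines was fragile.

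Cd34 had an interaction of 1.40, from -0.14 with Trib1 and -1.54 without it, and Myb had 0.65, from 0.09 and -0.56. Procr had 0.39, from 0.04 and -0.35, and Hlf 0.39, from -0.05 and -0.45. For Cd34, Myb, Procr and Hlf the difference between the lines did not pass. These interactions use the same arrays as the pairwise comparisons.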

How the results depend on the processing

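For the 8 tested genes, 377 of 382 differences recomputed under alternatives other than leaving out an array kept their direction and their side of the threshold, as did 468 of 480 with 1 array left out. The number of these genes higher in Ts1Cje + Trib1 WT than in B6 + Trib1 WT, 2 in the values reported, was 1 with median centring and 1 with only the groups compared, and between 1 and 2 with 1 array left out, since Bmi1 lost its call. The Hlf difference between the lines, which did not pass, ranged from -0.114 to 0.0314 with 1 array left out and so changed sign. The other counts of these genes passing in each direction moved by a factor of no more than 1.5 under the alternatives tried. The median difference of all genes moved by less than 0.1 under quantile normalization and median centring. With no filter, Mecom differed by -0.05 to 0.05 in the 4 comparisons, with no call. No Procr value was left without _x_at and _s_at probe sets. With the replicate block, Bmi1 between the lines had an adjusted p of 0.0464, and no call of the 8 genes changed. No pairing by replicate number was seen. Deviations of same-numbered arrays correlated between -0.45 and 0.35 across genes, and 3 of 12 arrays resembled their own number best. With 3 arrays a group, this does not show that the samples are unpaired. Values of Procr in the lines, near the filter level, limit what can be seen of it.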

Other observations

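Further lineage markers, summed per array, describe what the cultures held beside the genes above. The 7 T and NK cell markers summed to 1757 to 1856 in Ts1Cje + Trib1 WT and 1224 to 1234 in B6 + Trib1 WT, against 454 to 469 in Ts1Cje and 976 to 998 in B6. In the lines most of that sum was granzyme A (Gzma), at means of 1626 and 1039. Gzma rose in each comparison of lines with cells, while the other 5 markers in the fit fell. Of all 7, 3 were dim on every array of Ts1Cje + Trib1 WT and 1 in each other group. The 4 eosinophil markers with a probe set summed to 514 to 522 in Ts1Cje + Trib1 WT, 1246 to 1329 in B6 + Trib1 WT, 802 to 908 in Ts1Cje and 392 to 433 in B6. The 5 erythroid markers gave 4926 to 5105, 4623 to 4849, 3511 to 3600.1 and 4246 to 4288 in the same order of groups, and the 4 dendritic cell markers 218 to 246, 294 to 300.02, 379 to 423 and 458 to 508. Most of the erythroid sum in every group was Tfrc, at means of 2935, 2985, 2974 and 3145 in that order.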
